A study of Mus musculus with 8 samples.

Results

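T cell and intraepithelial lymphocyte genes were followed as 10 genes chosen by name (Cd3d, Cd3e, Cd3g, Cd4, Cd8a, Cd8b1, Gzma, Gzmb, Nkg7 and Itgae), each of which matched a single row among the 52195 genes of the deposited table. The table holds FPKM (fragments per kilobase of exon, scaled to the reads counted in genes) from bulk RNA-seq of kidney, liver, lung and small intestine of the mouse, 2 libraries from every organ, which makes 8 libraries. The animals were untreated male C57BL/6J mice (C57BL/6 in the labels), 6 to 10 weeks old, and carried no transgene or deletion named in the labels. The 2 libraries of a tissue came from separate mice, and since all 4 organs were taken from every mouse, the tissues compared share mice. Each library was made from poly(A) RNA of a whole washed organ, so that epithelium, connective tissue, organ-resident leukocytes and blood were measured together. The study used these libraries to ask how well cell type proportions can be estimated from bulk tissue, and the T cell genes bear on a minor cell type of each organ.

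T cells recognise antigen with a receptor of paired alpha and beta or gamma and delta chains, which is carried to the surface and signals through the CD3 chains. Cd3d, Cd3e and Cd3g encode the delta, epsilon and gamma chains of CD3, Cd4 encodes the coreceptor of helper T cells, and Cd8a and Cd8b1 encode the chains of CD8. The conventional cytotoxic T cell carries CD8 as a heterodimer of the alpha and beta chains, whereas many intraepithelial lymphocytes of the gut carry a homodimer of the alpha chain. Intraepithelial lymphocytes sit between the epithelial cells of the gut, are rich in gamma delta T cells, and are armed with granzymes. Gzma and Gzmb encode granzymes A and B, serine proteases of cytotoxic granules, and Nkg7 encodes a membrane protein of the same granules. Itgae encodes the alpha E integrin chain (CD103), which pairs with the beta 7 chain and binds E-cadherin on epithelial cells.

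RefSeq promoter windows (mouse build GRCm38.p6) of 250 bases before the annotated start were taken for 7 of the 10 genes, all but Cd4, Cd8b1 and Itgae. The windows of Cd3d and Cd3g are printed because these neighbouring genes encode chains of the same complex, those of Gzma and Gzmb because they had the largest positive differences between small intestine and lung, and that of Cd8a because its level parted from that of Cd8b1. They run 5′ to 3′ on the gene's strand, and capitals mark every match, on either strand, to 1 of 6 motifs searched: the Runx, Ets, T-box, E-box, TATA and AP-1 motifs, whose letters are given after the windows.
Cd3d, chr9:44981536-44981785, plus strand: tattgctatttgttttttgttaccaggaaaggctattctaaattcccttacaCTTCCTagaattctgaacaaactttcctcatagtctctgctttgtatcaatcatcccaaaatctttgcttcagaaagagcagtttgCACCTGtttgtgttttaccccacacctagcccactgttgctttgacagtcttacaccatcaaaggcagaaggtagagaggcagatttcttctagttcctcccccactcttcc
Cd3g, chr9:44980432-44980681, minus strand: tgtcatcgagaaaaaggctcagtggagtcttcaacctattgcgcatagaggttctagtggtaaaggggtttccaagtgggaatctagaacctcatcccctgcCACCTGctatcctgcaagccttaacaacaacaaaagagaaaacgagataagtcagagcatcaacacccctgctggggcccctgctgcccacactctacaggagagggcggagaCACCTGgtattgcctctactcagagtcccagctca
Cd8a, chr6:71373177-71373426, plus strand: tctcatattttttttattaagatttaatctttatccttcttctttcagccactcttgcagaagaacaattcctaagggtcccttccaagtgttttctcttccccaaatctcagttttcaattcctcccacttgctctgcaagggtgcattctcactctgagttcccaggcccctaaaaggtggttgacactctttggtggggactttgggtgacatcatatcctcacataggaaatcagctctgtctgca
Gzma, chr13:113100982-113101231, minus strand: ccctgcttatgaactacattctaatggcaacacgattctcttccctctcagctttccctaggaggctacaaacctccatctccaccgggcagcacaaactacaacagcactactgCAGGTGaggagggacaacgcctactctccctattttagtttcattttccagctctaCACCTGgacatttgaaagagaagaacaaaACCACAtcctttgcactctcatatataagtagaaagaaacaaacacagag
Gzmb, chr14:56262335-56262584, minus strand: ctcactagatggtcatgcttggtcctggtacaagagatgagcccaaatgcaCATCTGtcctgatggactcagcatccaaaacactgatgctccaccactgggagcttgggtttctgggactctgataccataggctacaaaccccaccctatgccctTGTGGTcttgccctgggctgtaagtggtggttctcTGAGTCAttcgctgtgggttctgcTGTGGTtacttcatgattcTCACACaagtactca

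Cd3d and Cd3g are transcribed away from each other, with starts 1355 bases apart, and Cd3e lies next to them on chromosome 9. The Runx motif (TGTGGT), for factors of the T cell and NK cell lineages, was found in 3 of the 7 windows (Gzma, Gzmb and Nkg7), against 14.0% of 32851 windows of the same length. The E-box (CAGNTG) was found in 5 of 7 against 44.8% of all windows. The Ets motif (AGGAAG) was found in 3 of 7 against 29.5%. The T-box motif (TCACAC) was found in the windows of Gzmb and Nkg7, 2 of 7 against 12.3%. The AP-1 motif (TGANTCA) was found in the Gzmb window alone, 1 of 7 against 6.75%. The TATA motif (TATAAA), held by 12.4% of all windows, was in none of the 7, and the Cd8a window held none of the 6 motifs. A match of letters is a description of the window only. The Gzmb window ends at the RefSeq start at base 56262334, which is upstream of the GENCODE M21 gene start at base 56262260, so it may not be the window used in these tissues. The Cd3e and Nkg7 windows end at RefSeq starts downstream of the GENCODE M21 gene starts, so their last bases lie within the annotated genes. For Nkg7 those bases hold its T-box and Ets matches.

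Whole numbers of reads were recovered from the FPKM steps, and the libraries held between 9164187 and 21444675 reads, the kidney libraries being the deepest. The genes that mark each organ were high in their own libraries, for example Umod at 753 and 554 FPKM in kidney, Alb at 34646 and 29371 in liver, Sftpc at 13440 and 11569 in lung, and Fabp2 at 4472 and 6134 in small intestine. The lung and liver libraries stood apart in scale, in opposite directions. Over all 16328 genes tested, the median difference from the mean of the other 3 tissues was 0.82 in lung and -0.72 in liver on the deposited log2(FPKM + 1) scale. The median difference between small intestine and lung was -0.57 as deposited and 0.02 after median-of-ratios scaling. Counts between these tissues are therefore given on both scales. In bulk tissue, fewer cells of a type and less RNA per cell cannot be told apart.

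The 10 genes were highest in lung and small intestine and were all under 1 FPKM in kidney and liver. They ranged from 1.48 to 20.7 FPKM in lung (27 to 294 reads) and from 0.774 to 96.4 FPKM in small intestine (13 to 951 reads). In kidney they ranged from 0.0114 to 0.918 FPKM, with 6 of 20 values under 3 reads and up to 32 reads (Itgae), and in liver from 0 to 0.651 FPKM, with 8 of 20 values under 3 reads. Every library of lung and small intestine was above every library of kidney and liver for each of the 10 genes. All 10 genes passed the filter on low values (1 FPKM or more in at least 2 libraries) through their lung or small intestine libraries, so that a difference from kidney or liver was set by the filter and is no support for a pattern.

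**Figure D1:**
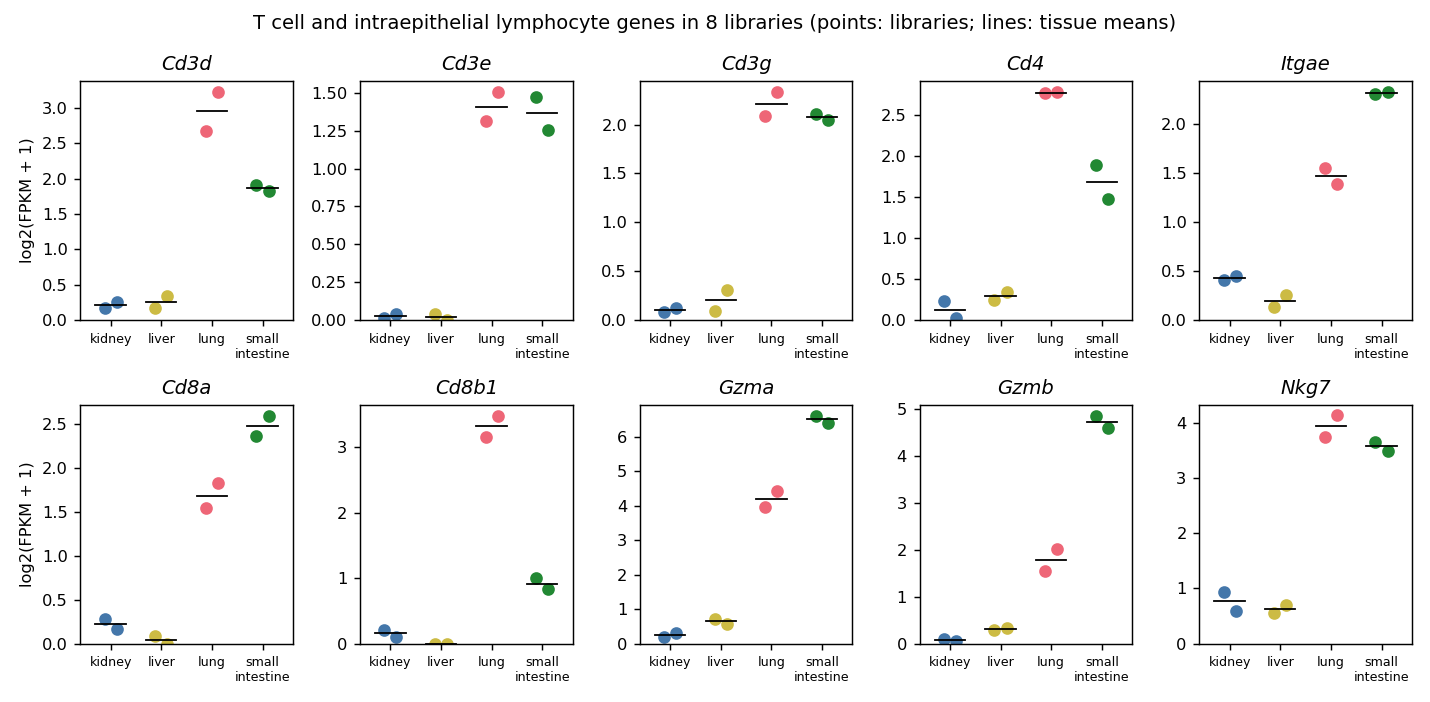
Level of each of the 10 genes in the 8 libraries as log2(FPKM + 1), 1 panel per gene with its own vertical axis from 0; points are libraries and lines are tissue means. Kidney and liver lie at the bottom of every panel, Cd8b1, Cd3d and Cd4 are highest in lung, and Gzma, Gzmb, Cd8a and Itgae are highest in small intestine.

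Cd3d (ENSMUSG00000032094.8, chr9:44981786-44987339, plus strand) stood at 5.42 and 8.38 FPKM in lung, 2.77 and 2.53 in small intestine, 0.120 and 0.267 in liver and 0.128 and 0.191 in kidney. The lung libraries were both above the small intestine libraries, and liver and kidney overlapped. Cd3e (ENSMUSG00000032093.7, chr9:44998740-45009627, minus strand) stood at 1.48 and 1.83 FPKM in lung, 1.78 and 1.39 in small intestine, 0.0114 and 0.0283 in kidney, and 0.0267 and 0 in liver, where the 0 allows up to 0.0712 FPKM (3 reads). Its lung and small intestine libraries overlapped, as did its kidney and liver libraries. Of its exon bases, 3.31% were shared with Gm48719 on the opposite strand, whereas the other 9 genes shared none. Cd3g (ENSMUSG00000002033.14, chr9:44969572-44980431, minus strand) stood at 3.26 and 4.04 FPKM in lung, 3.30 and 3.13 in small intestine, 0.0668 and 0.237 in liver and 0.0571 and 0.0884 in kidney. Here too lung overlapped small intestine and liver overlapped kidney. Of the CD3 genes, Cd3d alone separated lung from small intestine in its deposited values.

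Among the coreceptors, Cd4 (ENSMUSG00000023274.14, chr6:124864692-124888221, minus strand) stood at 5.84 and 5.87 FPKM in lung, 2.70 and 1.80 in small intestine, 0.189 and 0.264 in liver and 0.173 and 0.0143 in kidney. No tissues overlapped in the order lung, small intestine, liver, kidney, although the kidney libraries rested on 15 reads and 1 read. Cd8a (ENSMUSG00000053977.13, chr6:71373427-71379173, plus strand) had another order, with 4.14 and 5.03 FPKM in small intestine, 1.91 and 2.54 in lung, 0.218 and 0.127 in kidney, and 0.0600 and 0 in liver, where the 0 allows up to 0.0799 FPKM. Cd8b1 (ENSMUSG00000053044.8, chr6:71322788-71337494, plus strand), its neighbour on chromosome 6, stood at 7.94 and 10.1 FPKM in lung, 1.01 and 0.774 in small intestine and 0.157 and 0.0779 in kidney. It was listed at 0 in both liver libraries, which allows up to 0.221 and 0.196 FPKM. The chains of CD8 therefore had opposite orders: Cd8a was highest in small intestine and Cd8b1 in lung, with no overlap between these tissues for either gene.

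Of the granule genes, Gzma (ENSMUSG00000023132.8, chr13:113093825-113100981, minus strand) had the highest level of the 10 genes, with 96.4 and 83.5 FPKM in small intestine, 14.5 and 20.7 in lung, with 0.651 and 0.481 in liver and with 0.139 and 0.230 in kidney. Gzmb (ENSMUSG00000015437.5, chr14:56258838-56262260, minus strand) stood at 28.0 and 23.4 FPKM in small intestine, 1.93 and 3.08 in lung, with 0.228 and 0.270 in liver and with 0.0649 and 0.0402 in kidney. The step from liver to kidney rested on 6 and 5 against 3 and 4 reads of Gzma, and on 3 and 4 against 2 and 1 of Gzmb. With that limit, both granzymes kept the order small intestine, lung, liver, kidney with no overlap between neighbours. Nkg7 (ENSMUSG00000004612.9, chr7:43437073-43438249, plus strand) did not share it: it stood at 12.3 and 16.7 FPKM in lung, 11.6 and 10.2 in small intestine, 0.918 and 0.506 in kidney and 0.478 and 0.636 in liver. Its lung libraries lay just above its small intestine libraries, and kidney and liver overlapped. Itgae (ENSMUSG00000005947.11, chr11:73090583-73147446, plus strand) stood at 3.94 and 4.01 FPKM in small intestine, 1.92 and 1.62 in lung, 0.326 and 0.366 in kidney and 0.0953 and 0.190 in liver, in that order and without overlap.

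Each tissue was then compared with the mean of the other 3 tissues with limma on log2(FPKM + 1). To be called, a gene needed a difference above 1 in size and a p, adjusted by the Benjamini-Hochberg method, below 0.05. Since the comparisons share libraries, their results are not independent of each other. Each one also involves kidney and liver, and the difference from these tissues was set by the filter. The calls, and the shares of all genes beside them, therefore describe the values and are no support for a pattern. In small intestine 6 of the 10 genes were called higher, against 13.7% of all genes tested: Gzma by 4.81 (SE 0.17), Gzmb by 4.01 (SE 0.17), Cd8a by 1.83 (SE 0.13), Nkg7 by 1.79 (SE 0.18), Itgae by 1.62 (SE 0.12) and Cd3g by 1.24 (SE 0.13). Their limma adjusted p ran from 5.99e-07 for Gzma to 0.000139 for Cd3g. Cd8b1 had the lowest value of the 10 in this comparison, -0.24 with an adjusted p of 0.163 in limma, a direction that turned to 0.77 with a pseudocount of 0.1. After median-of-ratios scaling the same 6 genes were called, against 13.7% of all genes. In lung 6 genes were called higher, against 40.7% of all genes tested: Cd8b1 by 2.96, Nkg7 by 2.28, Cd3d by 2.18, Cd4 by 2.08, Gzma by 1.73 and Cd3g by 1.42. After median-of-ratios scaling 4 were called against 15.1% of all genes, since Gzma at 0.81 and Cd3g at 0.75 fell short of the fold. In liver 9 genes were called lower, against 32.7% of all genes, with Cd3e at -0.91 just short of the fold. After scaling 6 were called against 14.6%, without Cd3g, Cd4 and Itgae. In kidney 8 genes were called lower, against 16.1% of all genes, with Cd3e and Itgae both at -0.90 and again short of it. After scaling 6 were called against 12.7%, without Cd8a and Cd8b1. The scale of log2(FPKM + 1) understates the difference of low genes, and limma-voom on the recovered reads called all 10 genes higher in small intestine, against 19.9% of all genes, and all 10 higher in lung, against 55.8% of all genes.

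Small intestine was set directly against lung, the other tissue in which all 10 genes were above 3 reads in both libraries, to ask whether these organs differ in their T cell genes. The granzymes stood out on the intestinal side and Cd8b1 on the lung side. In FPKM as deposited, the tissue means of Gzmb (25.7 ± 3.26 against 2.504 ± 0.818, SD, n = 2) were 10.3-fold apart and those of Gzma (90.0 ± 9.15 against 17.6 ± 4.43) were 5.11-fold apart, small intestine being higher. The mean of Cd8b1 was 10.1-fold higher in lung (9.02 ± 1.52 against 0.891 ± 0.166). Cd8a and Itgae were 2.06-fold and 2.25-fold higher in small intestine, whereas Cd3d and Cd4 were both 2.60-fold higher in lung.

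In the limma fit, Gzmb differed by 2.95 (SE 0.21, adjusted p = 1.38e-05) and Gzma by 2.31 (SE 0.20, adjusted p = 4.28e-05), so that 2 genes were called higher in small intestine, against 10.1% of all genes. Cd8b1 at -2.40 (SE 0.16, adjusted p = 1.08e-05), Cd4 at -1.09 (SE 0.18, adjusted p = 0.00132) and Cd3d at -1.09 (SE 0.21, adjusted p = 0.00265) were called lower, 3 genes against 30.6% of all genes. The share of genes called lower among the 10 was thus close to that of all genes. Itgae (0.85, 95% interval 0.52 to 1.18) and Cd8a (0.79, 95% interval 0.41 to 1.18) passed the adjusted p but not the fold. The intervals of Cd3e (-0.35 to 0.26), Cd3g (-0.51 to 0.23) and Nkg7 (-0.87 to 0.13) held 0. Cd4 and Cd3d stood just past the fold: leaving out small intestine replicate 2 left Cd4 at -0.89, and leaving out lung replicate 2 left Cd3d at -0.82.

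Median-of-ratios scaling, which removes the shift of all genes between these tissues, moved each of the 10 genes towards small intestine. Then 4 genes were called higher in small intestine, against 16.6% of all genes: Gzmb by 3.42, Gzma by 3.03, Itgae by 1.27 and Cd8a by 1.26. Cd8b1 alone was called lower, at -1.68 (adjusted p = 2.78e-05 in limma), against 15.5% of all genes. Cd4 at -0.44 and Cd3d at -0.42 were no longer called. Cd3e, Cd3g and Nkg7 changed direction with the scaling, from -0.04, -0.14 and -0.37 as deposited to 0.38, 0.43 and 0.35, and were called on neither scale, although Cd3e and Cd3g had adjusted p of 0.0238 and 0.0380 in limma after scaling. Over the deposited values and the 9 alternatives other than leaving out a library, Gzmb stayed between 2.95 and 4.13, Gzma between 2.31 and 3.15, and Cd8b1 between -3.31 and -1.68. The calls of these 3 genes held in each of those alternatives and in each of the 8 fits without a library, 4 of which left lung or small intestine with 1 library whose spread was taken from the other tissues.

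**Figure D2:**
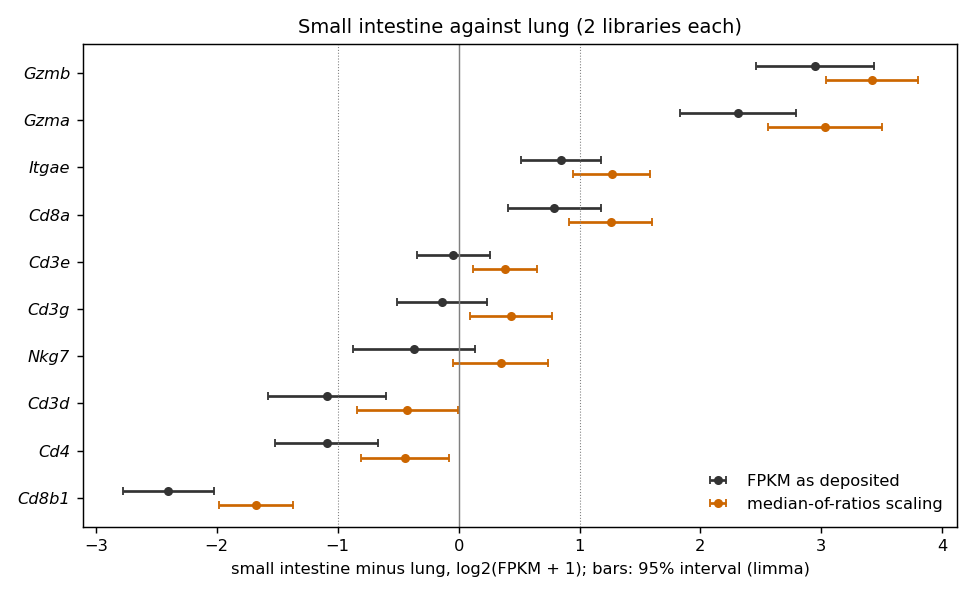
Difference between small intestine and lung (2 libraries each) for the 10 genes on the log2(FPKM + 1) scale, with 95% limma intervals, for FPKM as deposited (black) and after median-of-ratios scaling (orange); dotted lines mark a difference of 1 in size. Gzmb and Gzma lie to the right of the upper line and Cd8b1 to the left of the lower line on both scales, while Cd3e, Cd3g and Nkg7 change sides.

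Ratios of genes within a library do not depend on how libraries are scaled to each other, and they were taken for 6 pairs, with exact Clopper-Pearson 95% intervals that cover counting error only. The ratio of Cd8b1 to Cd8a, which describes the make-up of CD8, was 4.15 (3.05 to 5.68) and 3.97 (3.13 to 5.05) in the lung libraries and 0.244 (0.130 to 0.422) and 0.154 (0.0806 to 0.269) in the small intestine libraries. The geometric mean was 20.9-fold higher in lung, the widest gap of the 6 ratios. Kidney replicate 1, the only other library with 3 reads of both genes, had 0.721 (0.208 to 2.04).

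The ratio of Cd4 to Cd8a was 3.05 (2.32 to 4.06) and 2.31 (1.85 to 2.89) in lung and 0.653 (0.501 to 0.848) and 0.357 (0.273 to 0.464) in small intestine, 5.49-fold higher in lung. Kidney replicate 1 had 0.796 (0.370 to 1.69), from 15 and 17 reads. Its interval held the value of small intestine replicate 1 and neither lung value. Cd4 was thus above Cd8a in lung and below it in small intestine, per length of exon. The ratio of Gzmb to Gzma was 0.133 (0.0848 to 0.202) and 0.149 (0.109 to 0.1997) in lung and 0.291 (0.257 to 0.328) and 0.281 (0.249 to 0.316) in small intestine, 2.03-fold higher in small intestine. Liver had 0.350 (0.0567 to 1.64) and 0.560 (0.111 to 2.60), with intervals that held the values of both tissues. Gzma was above Gzmb in every library of lung and small intestine. The ratio of Itgae to Cd3e was 1.30 (0.921 to 1.84) and 0.881 (0.653 to 1.19) in lung and 2.21 (1.66 to 2.98) and 2.89 (2.18 to 3.89) in small intestine, 2.37-fold higher in small intestine. Kidney held 32 and 29 reads of Itgae beside 1 and 2 of Cd3e, too few of Cd3e for a ratio. A high Itgae relative to Cd3e was thus not seen in small intestine alone.

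The remaining pairs were close between the tissues. The ratio of Cd3g to Cd3e was 2.20 in each lung library and 1.85 and 2.26 in small intestine, which overlapped. The ratio of Nkg7 to Cd3e was 8.32 and 9.12 in lung and 6.50 and 7.39 in small intestine, 1.26-fold higher in lung, with counting intervals that overlapped. No test was made of the ratios, because the permutation test needed 3 or more reads of both genes in all 8 libraries and no pair had them.

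**Figure D3:**
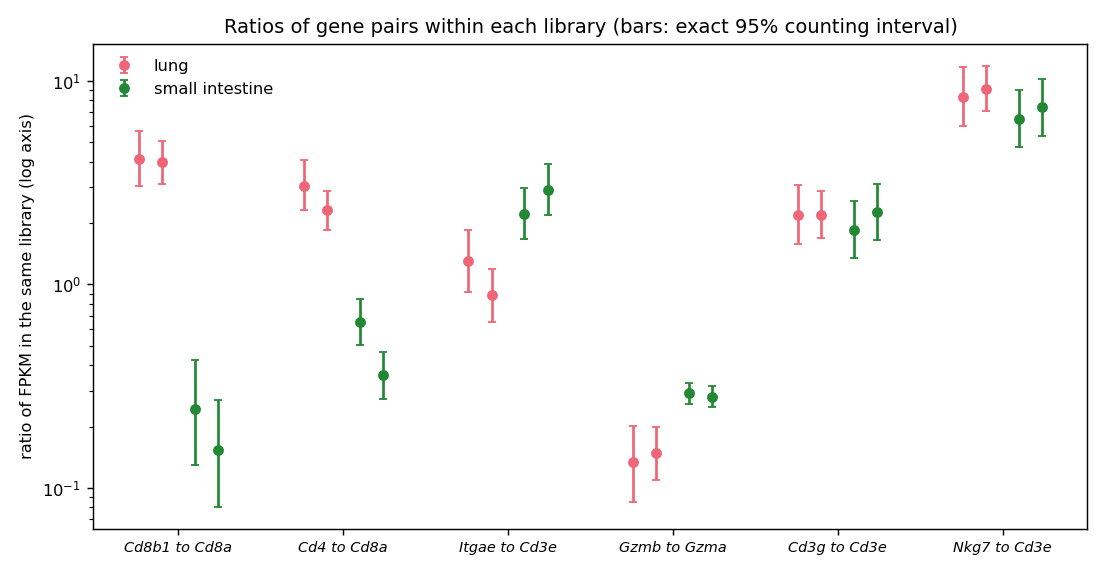
Ratio of FPKM of 6 gene pairs within each lung (red) and small intestine (green) library on a log axis, with exact 95% counting intervals. The Cd8b1 to Cd8a and Cd4 to Cd8a ratios are higher in both lung libraries, the Itgae to Cd3e and Gzmb to Gzma ratios are higher in both small intestine libraries, and the Cd3g to Cd3e ratios overlap.

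The same libraries were described per unit of CD3, as each level divided by the summed FPKM of Cd3d, Cd3e and Cd3g, a measure chosen after the values were seen and given without a test. The CD3 sum was 10.2 and 14.3 FPKM in lung and 7.85 and 7.05 in small intestine. Per CD3 sum, Gzmb was 17.0-fold, Gzma 8.39-fold, Itgae 3.54-fold and Cd8a 3.38-fold higher in small intestine, and Cd8b1 was 6.25-fold and Cd4 1.65-fold higher in lung. The CD3 sum over Ptprc, which encodes the pan-leukocyte antigen CD45, was 0.848 and 1.004 in lung and 3.02 and 2.37 in small intestine. Nkg7 was 1.23-fold higher in small intestine per CD3 sum but 1.26-fold higher in lung per Cd3e, since the make-up of the sum also differed: relative to lung, the share of Cd3d was 0.634 and those of Cd3e and Cd3g were 1.54 and 1.43. Small intestine thus had a lower CD3 sum than lung in FPKM as deposited but a higher one relative to its leukocyte RNA.

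The receptor chains also differed between the organs. Among 17 genes of the T cell receptor and its signalling, 16 were tested against lung, 3 were called higher in small intestine and 11 lower, with a median of -1.21 beside -0.57 over all genes. The shares over all genes were 10.1% higher and 30.6% lower. After scaling 3 were higher and 4 lower of 14, beside 16.6% and 15.5% of all genes, shares against which the counts of the other lists are also to be read. The 3 higher genes were the gamma chain constant genes Tcrg-C1 (3.99 and 4.96 FPKM in lung, 14.7 and 16.4 in small intestine), Tcrg-C2 (2.47 and 1.85 against 18.2 and 13.04) and Tcrg-C4 (0.520 and 0.980 against 6.18 and 6.63). They differed by 1.60, 2.39 and 2.09 as deposited and were called on both scales. The alpha chain gene Trac (21.8 and 21.5 FPKM in lung, 7.88 and 6.52 in small intestine) and the beta chain genes Trbc1 and Trbc2 were called lower as deposited, at -1.47, -1.62 and -1.81, and of these only Trbc2, the highest gene of the list in small intestine (23.2 and 14.9), was still called after scaling.

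The summed gamma genes over Trac were 0.320 and 0.362 in lung and 4.96 and 5.54 in small intestine, which is again independent of scaling between libraries. Trdc, the delta chain gene, was too low to be tested and stood at 0.583 and 0.375 FPKM in lung and 0.912 and 1.10 in small intestine. Cd2, which encodes an adhesion receptor of T and NK cells, was the lowest gene of the list in small intestine, at 0.368 and 0.406 FPKM against 10.4 and 14.3 in lung, and was called lower on both scales. Trbc1 and Trbc2, and likewise Tcrg-C1 and Tcrg-C2, are near-identical copies, and how reads shared by copies were counted is not given in the sources used here, so their single values are uncertain.

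Other genes of intraepithelial lymphocytes went both ways: of 9 tested, 1 was called higher in small intestine than in lung and 5 lower, with a median of -1.22 beside -0.57 over all genes. After scaling 1 was higher and 2 lower of 8, with a median of -0.43 beside 0.02 over all genes. The higher counts, and the lower count after scaling, were near the shares over all genes. Jaml, a junctional adhesion molecule of gut T cells, was the higher one (2.34 and 2.54 FPKM in lung, 11.1 and 7.84 in small intestine). Itgb7, the beta chain that pairs with the product of Itgae, was called lower on both scales (18.6 and 19.0 against 4.99 and 3.90), and also serves in another integrin of gut-homing leukocytes. The activation gene Cd69, lowest of the list in small intestine, stood at 1.62 and 2.497 FPKM in lung and 0.164 and 0.448 in small intestine.

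Of 11 cytotoxic effector genes, 6 were tested and limma called none higher and 1 lower in small intestine as deposited, and 1 of 4 higher after scaling. As deposited, Ccl5 alone had a positive difference with an unadjusted p under 0.05, and limma-voom on the reads called 1 gene higher, against 11.6% of all genes. Prf1, which encodes perforin, the pore-forming partner of the granzymes, was called lower (3.33 and 3.77 FPKM in lung, 0.537 and 0.752 in small intestine, -1.47, adjusted p = 4.64e-05 in limma), but was not called after scaling, at -0.86. The chemokine gene Ccl5 (18.2 and 19.5 FPKM in lung, 44.2 and 33.9 in small intestine), highest of the list in small intestine, was just under the fold at 0.9993 and was called after scaling at 1.73. Eomes, a T-box factor of cytotoxic lymphocytes, was listed at 0 in both small intestine libraries, which allows up to 0.0771 and 0.0638 FPKM, and stood at 0.468 and 0.523 in lung.

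Genes of recirculating T cells were on the lung side. All 6 that could be tested were called lower in small intestine than in lung on both scales, with a median of -3.39 as deposited and -2.61 after scaling. Ccr7, the chemokine receptor gene used to enter lymph nodes, stood at 16.5 and 24.5 FPKM in lung and 0.756 and 0.625 in small intestine. Klf2 and S1pr1, which also serve in endothelium, had the largest differences at -5.05 and -5.36. Klf2 was the highest of the list in small intestine (3.82 and 2.01 FPKM), and Lef1, which was not tested, the lowest (0.0243 and 0.0301).

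Among 8 genes of the CD4 lineage, 2 of 6 tested were called higher in small intestine and 3 lower, and after scaling 2 of 5 higher and 1 lower, beside 10.1% and 30.6% of all genes as deposited and 16.6% and 15.5% after scaling. Zbtb7b, which encodes a transcription factor of helper T cells, was called higher (7.55 and 8.38 FPKM in lung, 18.8 and 23.4 in small intestine), but it was at 4.25 FPKM or more in every kidney and liver library, where Cd4 was near 0. The interleukin 2 receptor gene Il2ra, the lowest of the list in small intestine, stood at 0.0187 and 0.0773 FPKM there and 0.664 and 0.775 in lung. The epithelial genes that act on intraepithelial lymphocytes were on the intestinal side, with 7 of 8 tested called higher than in lung, and 8 of 8 after scaling. Btnl1, a butyrophilin-like gene that selects gamma delta cells of the gut, stood at 125 and 143 FPKM in small intestine and at 0.495 and 0.130 in lung. H2-T3, which encodes the thymus leukemia antigen, a ligand of the CD8 alpha homodimer, stood at 103 and 98.6 FPKM against 0.188 and 0.0590. Il7, lowest of the list, was at 0.245 and 0.281 FPKM in small intestine.

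**Figure D4:**
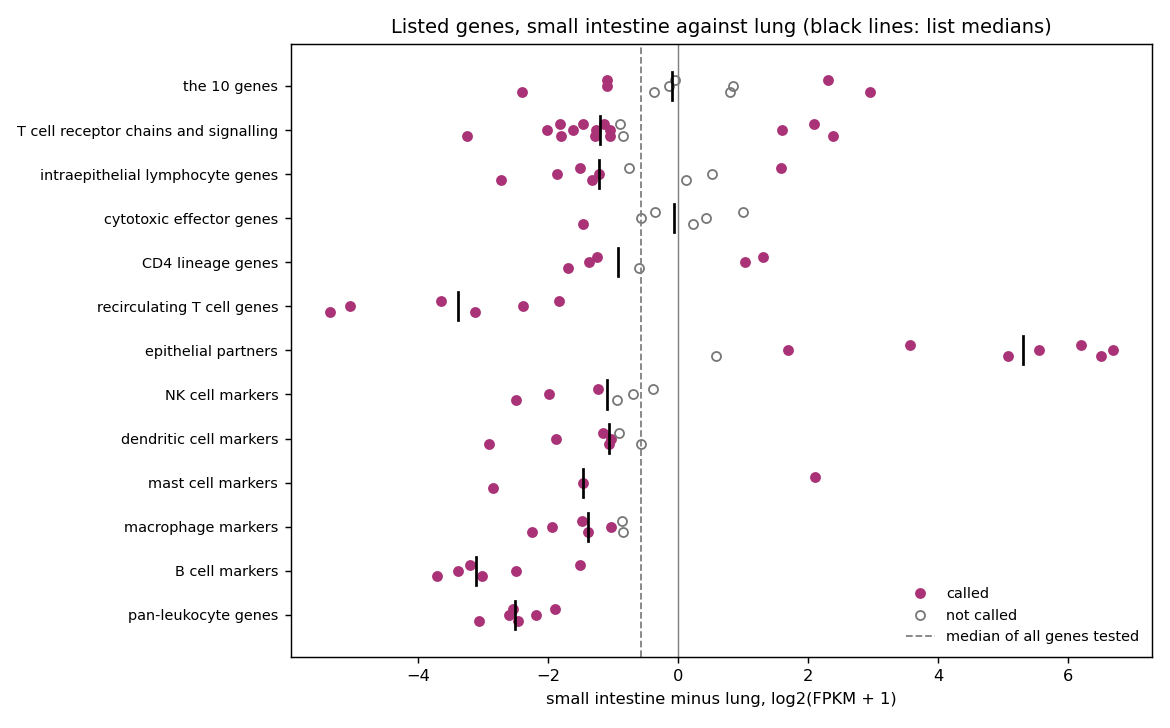
Difference between small intestine and lung on the log2(FPKM + 1) scale (as deposited) for the tested genes of each list; filled points passed the adjusted p and the fold, black lines are list medians, and the dashed line is the median of all genes tested. The recirculating T cell, B cell and pan-leukocyte genes lie to the left, the epithelial partners to the right, and the 10 genes on both sides with a median of -0.09.

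Several members are also made by other leukocytes, whose markers were read in the same libraries. Granzymes and Nkg7 are NK cell products. Of 9 NK cell markers 6 were tested, all of them below lung as deposited and 3 called lower, beside 30.6% of all genes, and 2 of 4 were lower after scaling, beside 15.5%; their sum was 137 to 163 FPKM in lung and 32.4 to 49.9 in small intestine. Most of the intestinal sum was Tyrobp (39.9 and 24.4 FPKM), which is shared with myeloid cells. In small intestine Ncr1 stood at 0.0694 and 0.115 FPKM, Klra8 at 0.0907 and 0, Klrc2 at 0.0184 and 0, Klrb1c at 0.0722 and 0.119, Klrk1 at 0.164 and 0.0984 and Klre1 at 0.0917 and 0.0758. In lung Ncr1 stood at 1.06 and 2.19 FPKM, Klra8 at 3.48 and 6.69, Klrc2 at 0.211 and 0.429, Klrb1c at 0.588 and 1.30, Klrk1 at 1.03 and 1.33 and Klre1 at 0.733 and 1.70. Klrd1, a receptor chain that cytotoxic T cells also carry, was close between the organs (7.04 and 8.79 FPKM in lung, 6.50 and 5.17 in small intestine), at -0.38 as deposited and 0.29 after scaling. Il2rb, also shared with T cells, was at -0.70 as deposited and -0.08 after scaling. The part of NK cells in the levels of the granzymes and Nkg7 was not tested.

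Granzyme B can also be made by mast cells, Cd8a and Itgae by dendritic cells, and Cd4 at a low level by myeloid cells. Of 7 mast cell markers, Mcpt1, a protease of mucosal mast cells, was called higher in small intestine (3.27 and 4.18 FPKM against 0.202 and 0 in lung), Kit was called lower on both scales, Cpa3 was called lower as deposited (-1.46) but not after scaling (-0.88), and Mcpt4 was listed at 0 in both small intestine libraries. The mast cell sum was 5.36 and 6.9996 FPKM in small intestine, below the 16.0 and 19.0 of lung. Of 7 dendritic cell markers 5 were called lower as deposited, against 30.6% of all genes, and 2 of 5 tested were lower after scaling, against 15.5%, with sums of 5.29 to 8.27 FPKM in small intestine and 31.3 to 31.9 in lung, Itgax being the highest (3.96 and 2.70) and Zbtb46 the lowest (0.176 and 0.135) in small intestine. Of 7 macrophage markers 5 were called lower as deposited and 2 after scaling, beside the same 30.6% and 15.5%, with C1qb highest (38.4 and 26.2, called as deposited only) and Mrc1 lowest (1.17 and 1.14, called on both scales) in small intestine. The part of these cells in the levels of the 10 genes was not tested.

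Leukocyte and red cell RNA was higher in lung. All 6 pan-leukocyte genes were called lower in small intestine on both scales, with a median of -2.51 as deposited, from Laptm5 (21.2 and 19.2 FPKM, against 97.9 and 155 in lung) to Cd37 (2.70 and 2.33, against 24.7 and 32.9). All 6 B cell markers were called lower as deposited, from Cd79a (10.3 and 8.73 FPKM, against 66.8 and 107) to Pax5 (0.169 and 0.329, against 2.16 and 3.03), and 5 of 6 after scaling. All 5 erythroid genes were called lower on both scales, and their sum was 19195 and 24891 FPKM in lung and 327 and 99.8 in small intestine, with Hbb-bs highest and Alas2 lowest there. Between lung and small intestine, erythroid RNA thus lay on the same side as Cd8b1, Cd4, Cd3d and the recirculating genes. Its sum was also above that of small intestine in liver, at 726 and 781 FPKM, and in kidney. Cd8b1, Cd4 and Cd3d were lower there than in small intestine, and the part of erythroid RNA in the levels of any of these genes was not tested. In kidney replicate 2 the erythroid sum was 2409 FPKM against 867 in replicate 1, and the 10 genes summed to 1.67 and 2.19.

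Over the 8 libraries the 45 pairs among the 10 genes had Pearson correlations on log2(FPKM + 1) from 0.277 to 0.994, with a median of 0.929. These libraries share tissues, so the values mostly describe the gap between lung and small intestine on the one side and kidney and liver on the other. The genes outside the 10 whose levels ran closest to Cd3e were Pkmyt1, Asns, Ncaph, Rfc3 and Rasa4 (r from 0.995 to 0.997). Pkmyt1, a kinase that holds back entry into mitosis, stood at 4.57 and 5.72 FPKM in lung and 5.396 and 4.55 in small intestine. Closest to Cd8a were Atf3, Ifngr2, Cdc20, Pclaf and Mical1 (r from 0.996 to 0.997), among which Cdc20, an activator of the anaphase-promoting complex, stood at 3.18 and 5.47 FPKM in lung and 11.3 and 11.7 in small intestine. Closest to Gzma were Snx20, Noxa1, Sec22b, Ly75 and Tmem98 (r from 0.997 to 0.998). None of the 15 was on a list used here, and with 4 tissues many genes of an organ can share such an order.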

How the data were processed

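Bulk RNA-seq libraries of kidney, liver, lung and small intestine (2 per tissue) were analysed, grouped by the tissue in the labels. The authors mapped the reads with STAR 2.5.3a to the Ensembl mouse genome (GRCm38) and deposited FPKM values computed with DESeq2, scaled to each library's total. The counting program, its strand setting and its treatment of reads with several matches are not given in the sources used here. Of 52195 genes, 51847 (99.3%) matched 1 gene of GENCODE M21, whose merged exon length turned the FPKM steps into reads. Of values up to 50 reads, 94.5% to 96.1% per library were whole within 0.02. Libraries held 9164187 to 21444675 reads, and 3 reads were taken as the floor. Intervals and floors cover counting error only.

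The 16328 genes with 1 FPKM or more in at least 2 libraries were fitted in limma 3.58.1 (R 4.3.3) on log2(FPKM + 1), with all 8 libraries in 1 model, an empirical Bayes trend and Benjamini-Hochberg adjustment. Calls needed an adjusted p below 0.05 and a difference above 1. The fit was tested on simulated counts in which only small intestine differed. No tissue was shifted in scale there, unlike in these data, so that test does not cover such shifts. Alternatives were a pseudocount of 0.1, no filter, median-of-ratios scaling, an equal sum of FPKM without mitochondrial genes, quantile normalization, no trend, a replicate block, limma-voom on the reads and leaving out each library. limma-voom with median-of-ratios scaling was added after seeing the data.

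The 10 genes and the lists beside them were chosen with earlier results of these data known. All 10 genes are named, with the highest and lowest gene of each list in small intestine, other listed genes a result turns on, and the 5 genes whose levels correlated best with each of Cd3e, Cd8a and Gzma. The 4 organs came from the same mice, nothing in the sources ties a replicate number to a mouse, and p-values measure the spread between 2 libraries per tissue. Cd244a was matched by its synonym Cd244. Promoter windows came from RefSeq. Some listed genes are not reported here by name.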

Additional observations from a re-analysis of the deposited data

How the results depend on the processing

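For single genes, 764 of the values under an alternative kept their direction and their side of the thresholds, 38 kept their direction and gained a call, 25 kept it and lost one, and 23 changed direction. In small intestine against the other tissues, 6 genes were called higher, 9 with a pseudocount of 0.1 (Cd3d at 1.79, Cd3e at 2.54 and Cd4 at 1.72 gained a call), 10 by limma-voom and also 10 by limma-voom with median-of-ratios scaling. In lung the count rose from 6 to 10 with a pseudocount of 0.1 and with limma-voom. In liver the count of 9 fell to 5 with quantile normalization. Between small intestine and lung the count of 5 fell to 3 with an equal sum of FPKM without mitochondrial genes. There limma-voom called 4 genes higher and 3 lower, Cd8a at 1.04 and Itgae at 1.18 having gained a call. The cause of these changes was not tested.

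Cd8b1 in small intestine against the other tissues turned from -0.24 to 0.77 (pseudocount 0.1), 1.40 (limma-voom, adjusted p = 0.0271) and 1.27 (limma-voom with median-of-ratios scaling, adjusted p = 0.0278), and both limma-voom values were called. In lung against the other tissues, Gzmb turned from 0.08 to -0.52 (median-of-ratios), -0.072 (equal sum) and -0.771 (quantile), and ranged from -0.16 to 0.32 when a library was left out, the lowest without lung replicate 2. There Itgae turned from 0.49 to -0.046 (median-of-ratios) and -0.39 (quantile), and Cd8a from 0.77 to -0.049 (quantile). Between small intestine and lung, Cd3e turned from -0.04 to 0.38 (median-of-ratios), 0.074 (equal sum), 0.61 (quantile) and 0.70 (limma-voom with median-of-ratios scaling), and ranged from -0.15 to 0.068 when a library was left out, with 0.054 without lung replicate 2. Under the same settings Cd3g turned from -0.14 to 0.43, 0.014, 0.53 and 0.61. Nkg7 turned from -0.37 to 0.35 (median-of-ratios), 0.074 (quantile) and 0.37 (limma-voom with median-of-ratios scaling).

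For log2 ratios, small intestine minus the other tissues with 3 reads of both genes, leaving out a library moved Cd8b1 to Cd8a (-3.56) between -4.39 and -3.13 and Cd4 to Cd8a (-1.88) between -2.46 and -1.44, the lowest of each being without kidney replicate 1. It moved Gzmb to Gzma (0.19) between -0.11 and 0.58 and Cd3g to Cd3e (-0.10) between -0.25 and 0.040. The Gzmb to Gzma value includes the liver libraries, which rested on 3 to 6 reads of either gene. It fell to -0.11 without lung replicate 1 and to -0.055 without lung replicate 2, and was 0.58 without liver replicate 2. Cd3g to Cd3e turned to 0.040 without small intestine replicate 1.

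The replicate numbers are not known to mark a mouse, and the correlation of replicate differences between tissues ran from -0.217 to 0.0528. With the replicate number as a block, the counts stayed at 6, 6, 9, 8 and 5 for small intestine, lung, liver, kidney and small intestine against lung, and the ratio of Cd8b1 to Cd8a was -3.76. In kidney, the deepest tissue, 6 of 20 values were under 3 reads, and in liver 8 of 20, so their levels are read with wide counting error.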
